A study of Mus musculus with 6 samples.

Results

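The cytosolic ribosomal protein genes were chosen by name: every row of the expression table whose symbol is Rps or Rpl followed by a number, with an optional final a, l or x, together with Rplp0, Rplp1, Rplp2 and Rpsa. This gave 81 of 14912 rows, of which 32 are named for the small subunit and 49 for the large subunit. The annotation lists 2 of the 81, Rps4l and Rpl6l, as pseudogenes, and the counts by subunit follow the names. RNA was measured by sequencing from the 3′ end of transcripts in bone marrow of wild-type C57BL/6J mice, cultured with the growth factor FLT3LG at 50 ng/ml to obtain dendritic cells, the cells that present antigen to T cells. For all 6 samples the FLT3LG medium was renewed on day 7. Of these, 3 then had recombinant human midkine, a secreted growth factor that binds heparin, added at 10 ng/ml over the last 2 days. The 3 control samples had none. The comparison asks what midkine does to gene expression there. Whether the replicates came from separate mice or cultures is not stated in the labels, so each p-value reflects no more than the spread between these samples, and that spread may be technical.

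Cytosolic ribosomes carry out protein synthesis: the small subunit reads the mRNA and the large subunit joins amino acids and releases the growing chain through its exit tunnel. Most of the proteins are present in equal numbers in a ribosome, and their mRNAs as a rule begin with a run of pyrimidines, the 5′ terminal oligopyrimidine (TOP) motif, through which the mTORC1 kinase and the RNA-binding protein LARP1 control their translation and stability together. Dendritic cells raise protein synthesis when they are activated, and loss of 1 copy of many of these genes impairs red cell formation in Diamond-Blackfan anaemia.

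The libraries held 5089338 to 6453768 reads, with 14649 to 14737 genes seen in each. Of the dendritic cell markers, the 6 chosen as general ones (Flt3, Zbtb46, Itgax, Cd74, H2-Aa and H2-Ab1) were present in every library. Their summed normalised read counts were 44349 to 47659 in controls and 50810 to 54107 with midkine. Most of this sum was Cd74, H2-Aa and H2-Ab1, with control means of 11797, 17072 and 15193, against 634 for Flt3 and 417 for Itgax. The sum therefore does not show what share of the cells were dendritic. Markers of other cells differed between the groups. All 12 cycling-cell genes fell (summed values of 10135 to 10366 in controls and 5006 to 6072 with midkine), as did 6 of 7 tested plasmacytoid dendritic cell markers (5487 to 5649 and 1611 to 1677; Klk1 was not in the table) and 7 of 7 type 1 conventional dendritic cell markers (22719 to 26661 and 12250 to 13949). Stromal markers moved the other way, 7 of 8 tested being higher and 1 lower (13878 to 17184 and 36244 to 39173; Lum was not in the table and Thy1 was below the filter), and so did 4 of 6 type 2 conventional dendritic cell markers (2871 to 3125 and 3744 to 4335). Of 8 neutrophil markers, 3 of the 4 tested fell (summed values of 536 to 668 and 54.1 to 80.0). Erythroid genes were near 0 throughout (summed values of 4.72 to 8.40 and 3.38 to 10.997; Alas2 and Klf1 were among the listed genes not in the table). The part of these shifts in the results on ribosomal protein genes was not tested.

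With midkine, most ribosomal protein genes rose a little and together on the deposited scale. Of the 79 members with a mean value of at least 10, 60 were higher (76.0%), 1 was lower and 18 were not called, by limma on log2(value + 1) with Benjamini-Hochberg adjustment over all 11844 tested genes at a threshold of 0.05. Among all tested genes 20.9% were higher and 21.8% lower. The median log2 fold change of the members was 0.30, with the middle part of the members, from the first quartile to the third, between 0.19 and 0.42, and the median over all tested genes was -0.01. In bulk samples such as these, fewer cells of a type and less RNA per cell cannot be told apart.

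The rise was present in each midkine library. Relative to the control mean, the median member stood at -0.03, 0.02 and 0.01 (log2 scale) in control libraries 1, 2 and 3, and at 0.33, 0.31 and 0.25 in midkine libraries 1, 2 and 3. The 2 groups did not overlap by this measure. For 61 members all 3 midkine values lay above all 3 control values, for 1 member they lay below, and for 17 the groups overlapped; over all tested genes these shares were 25.1% above and 26.2% below. Rps2 (not called with DESeq2) and Rpl7a were called higher although their groups overlapped, and Rpl6, Rpl32 and Rps26 were apart but not called with limma. Other abundant genes moved in both directions: of 674 other genes with a mean value of at least 1000, 213 were higher and 233 lower, with a median log2 fold change of 0.00. The 77 tested proteins of the mitochondrial ribosome, a separate machine inside mitochondria, had 6 higher and 16 lower, with a median of -0.17.

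**Figure D1:**
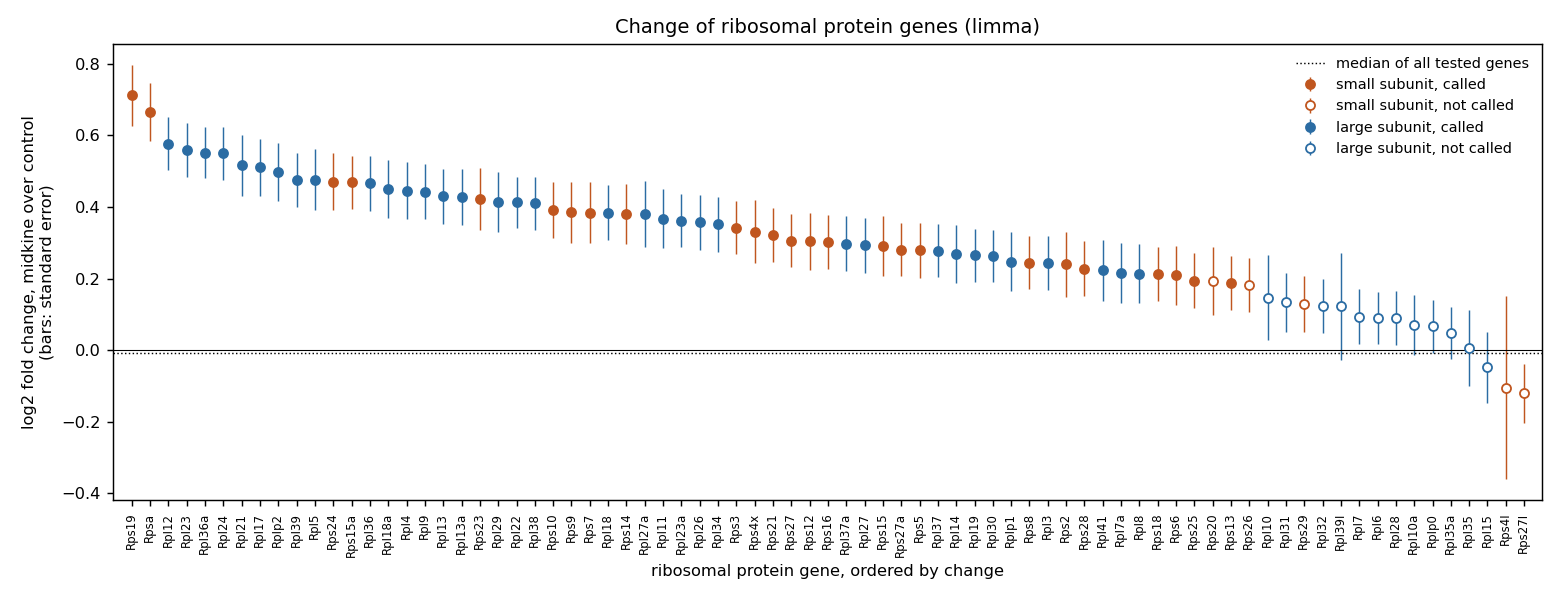
Log2 fold change (vertical axis, midkine over control, limma) of the tested ribosomal protein genes (2 are not shown), ordered along the horizontal axis; points are estimates, bars standard errors, orange the small and blue the large subunit, filled points called at an adjusted p under 0.05. Estimates run from 0.71 for Rps19 to -0.12 for Rps27l, and most lie above the dotted median of all tested genes at -0.01.

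How large the rise is depends on what the libraries are scaled to. The deposited values divide each library by a size factor, which follows the typical gene. As a share of all reads, which uses no size factor, the members took 7.13%, 8.01% and 7.32% in control libraries 1 to 3 and 7.76%, 8.13% and 7.54% in midkine libraries 1 to 3. These ranges overlapped, with means of 7.49% ± 0.461 and 7.81% ± 0.297 (SD, n = 3). Rows of ribosomal RNA took 19.8%, 15.8% and 21.4% of the control reads and 30.6%, 25.7% and 29.4% of the midkine reads, and the mitochondrial mt-Rnr2 alone took 6.85% to 7.29% and 14.1% to 16.1%. With these rows taken out of the total, the members' shares were 8.89%, 9.51% and 9.31% in controls and 11.2%, 10.9% and 10.7% with midkine. The groups were then apart, with a difference of 1.70 percentage points between their means. Over all reads the difference was 0.33, and it was 0.15 without control library 1, 0.17 without midkine library 2 and 0.59 without control library 2.

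**Figure D2:**
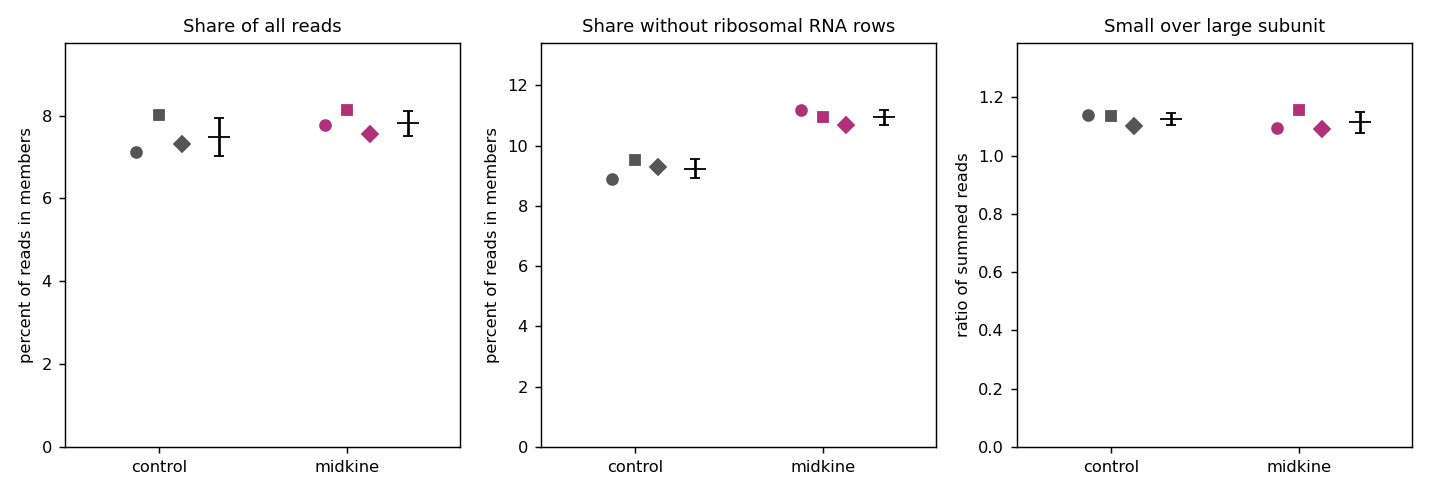
Percent of all reads in the members (left), percent of reads without ribosomal RNA rows (middle) and summed reads of the small over the large subunit (right) in each library; circles, squares and diamonds are replicates 1, 2 and 3, and bars give mean and SD (n = 3). The groups overlap on the left (7.13% to 8.01% and 7.54% to 8.13%), are apart in the middle (8.89% to 9.51% and 10.7% to 11.2%) and overlap on the right (1.10 to 1.14 and 1.09 to 1.16).

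Rescaled to total reads, the median over all tested genes moved to -0.26, and that of the members to 0.04, which is 0.30 above all genes. In that scaling 13 members were higher and 6 lower (limma), where 10.8% of all tested genes were higher and 40.7% lower, and this scaling, a constant per library, leaves the gap between members and other genes as it was by construction. After quantile normalization, which gives each library the same spread of values, the median member stood 0.12 above all genes, with 31 members higher and 4 lower, against 19.9% and 21.8% of all tested genes. Of the called genes described further on, Rplp1, Rpl3, Rps6 and Rpl22l1 had negative changes with total reads, and Rplp1, Rpl3, Rack1 and Fau after quantile normalization. Total reads without the ribosomal RNA rows gave 47 higher and 1 lower, beside 2026 higher and 3177 lower of all 11844 tested genes. TMM factors gave 61 and 1, beside 2499 and 2559 of all tested genes. With edgeR on the recovered reads 61 were higher and 1 lower, where edgeR called 21.8% of all tested genes higher and 21.7% lower.

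**Figure D3:**
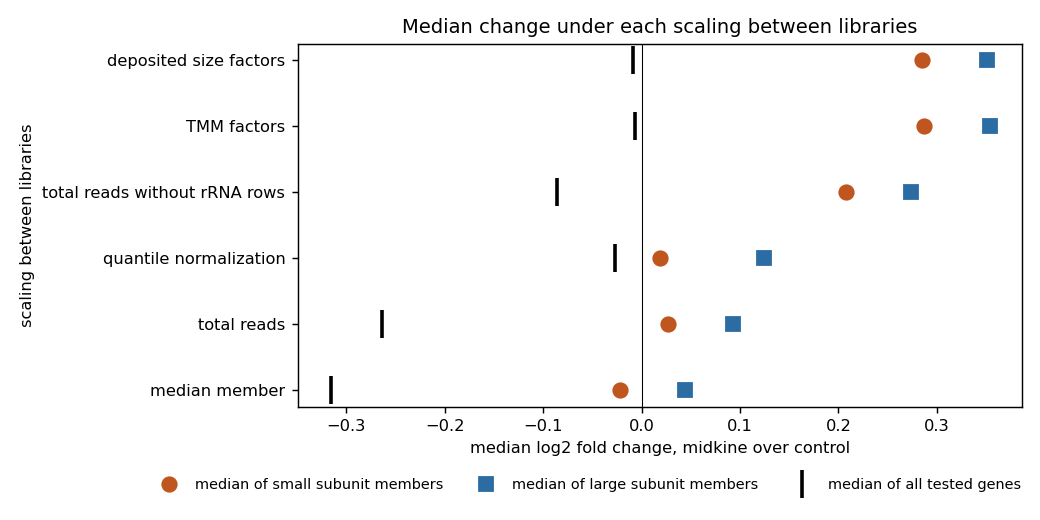
Median log2 fold change (horizontal axis, midkine over control) of the small subunit members (orange circles), the large subunit members (blue squares) and all tested genes (black bars) under 6 ways of scaling the libraries (vertical axis). Members lie to the right of all genes in each, by 0.30 for all members with total reads and by 0.12 after quantile normalization. Every scaling except quantile normalization is a constant per library, which leaves this gap nearly as it was by construction. After quantile normalization the small subunit lies 0.05 and the large subunit 0.15 above all genes.

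On the deposited scale genes of both subunits rose. Of 32 small subunit genes 25 were higher (78.1%), 1 lower and 6 not called, and of 47 tested large subunit genes 35 were higher (74.5%), 0 lower and 12 not called (limma). The median log2 fold change was 0.29 for the small and 0.35 for the large subunit. With total reads 4 small and 9 large subunit genes were higher and 3 of each lower, and after quantile normalization 10 and 21 were higher and 3 and 1 lower, with medians of 0.02 and 0.12. Summed reads of the small subunit over those of the large, a ratio that no constant factor per library can alter, were 1.14, 1.13 and 1.10 in control libraries 1 to 3 and 1.09, 1.16 and 1.09 in midkine libraries 1 to 3. The control values lay inside the range of the midkine values, and the means, 1.12 ± 0.0207 and 1.11 ± 0.0364 (SD, n = 3), differed by less than the spread between replicates. The median of the large subunit was above that of the small in midkine libraries 1 and 3 (0.38 against 0.31, and 0.28 against 0.22) and below it in library 2 (0.28 against 0.32).

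In the small subunit the largest rise was that of Rps19 (chr7:24884371-24889806, plus strand, GRCm38), a protein of the subunit's head and the gene most often mutated in Diamond-Blackfan anaemia. Its normalised read counts were 4874, 5787 and 4974 in control libraries 1 to 3 and 9472, 7743 and 8404 in midkine libraries 1 to 3. Every midkine library was above every control library, and the mean rose from 5212 ± 501 to 8540 ± 873 (SD, n = 3), which is 0.71 ± 0.0854 on the log2 scale (SE; Benjamini-Hochberg adjusted p = 2.08e-07 with limma). Rpsa (chr9:120127689-120132369, plus strand), which lies on the solvent side near the mRNA exit and is also known as a laminin receptor, came next. Its values were 5454, 6532 and 6284 in controls and 9931, 9641 and 9317 with midkine. The groups were far apart, at 0.66 ± 0.0799 on the log2 scale (SE; adjusted p = 2.11e-07 with limma). Both stayed higher after scaling to total reads, at 0.45 and 0.41.

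Of 9 tested proteins at the decoding site and the mRNA entry and exit, 8 were higher and 0 lower, with a median log2 fold change of 0.34. The shares of all tested genes were 20.9% higher and 21.8% lower. With total reads 1 of the 9 was higher and 0 lower, beside 10.8% and 40.7% of all tested genes. In this group Rps3, at the entry, had values of 5307, 4787 and 4916 in controls and 6424, 6250 and 6332 with midkine, which did not overlap (log2 fold change 0.34; adjusted p = 0.000524 with limma). Rps26, at the exit, was the member not called, at 4165, 4525 and 4341 against 4987, 5185 and 4620 (log2 fold change 0.18; adjusted p = 0.0522 with limma). Its groups did not overlap, and Rps26 was called higher with edgeR (adjusted p = 0.0481) and with DESeq2 (adjusted p = 0.0368).

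Rps27a, made as a fusion with ubiquitin, had values of 4460, 4759 and 4404 in controls and 5634, 5646 and 5265 with midkine, and rose by 0.28 on the log2 scale (adjusted p = 0.00326 with limma). Its groups were apart. Rps6, the substrate of the S6 kinases downstream of mTORC1, had 1706, 1621 and 1710 in controls and 2163, 1735 and 1945 with midkine. The second midkine library lay close to the controls, and the call (log2 fold change 0.21; adjusted p = 0.0410 with limma) was lost without control library 2 or 3 or midkine library 1 or 3, at 0.13 to 0.22. The member with the most reads, Rps14, had 22992, 23715 and 23905 in controls and 30888, 31689 and 29377 with midkine and rose by 0.38 (adjusted p = 0.000690 with limma), with groups far apart.

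In the large subunit the order was led by Rpl12 (chr2:32961559-32965345, plus strand), at the base of the stalk that recruits translation factors. Its values were 1813, 2024 and 1894 in controls and 2895, 2899 and 2749 with midkine. The groups were widely apart and each tightly spaced, at 0.58 ± 0.0740 on the log2 scale (SE; adjusted p = 5.97e-07 with limma). The other stalk proteins had smaller estimates. Rplp2 had 3065, 2788 and 3017 against 3955, 4691 and 3905 (log2 fold change 0.50; adjusted p = 1.70e-05 with limma), and its partner Rplp1 had 8398, 9666 and 10116 against 11786, 10917 and 10666 (0.25; adjusted p = 0.0184 with limma). Rplp1's groups were separated by a narrow gap, and its call was lost without control library 1 (log2 fold change 0.17) or midkine library 1 (0.20). Rplp0, the scaffold that holds the Rplp1 and Rplp2 pairs, had 4300, 4608 and 4634 against 4942, 4760 and 4484, with overlapping groups (0.07; adjusted p = 0.496 with limma).

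Rpl23 (chr11:97777527-97782437, minus strand), at the face where the subunits meet, had 5302, 5133 and 5078 in controls and 8150, 7144 and 7602 with midkine. The lowest midkine library was well above the highest control, and the change was 0.56 ± 0.0754 on the log2 scale (SE; adjusted p = 1.24e-06 with limma). Rpl24, also at a bridge between the subunits, had 3046, 3156 and 3270 against 4921, 4518 and 4436 (log2 fold change 0.55; adjusted p = 1.21e-06 with limma). Rpl36a, at the site from which tRNA leaves, had 2890, 2863 and 2734 against 4269, 4004 and 4171 (0.55; adjusted p = 7.81e-07 with limma). These groups did not overlap either. Rpl21 and Rpl17, the other members among the 8 with the largest rise, had log2 fold changes of 0.52 and 0.51.

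**Figure D4:**
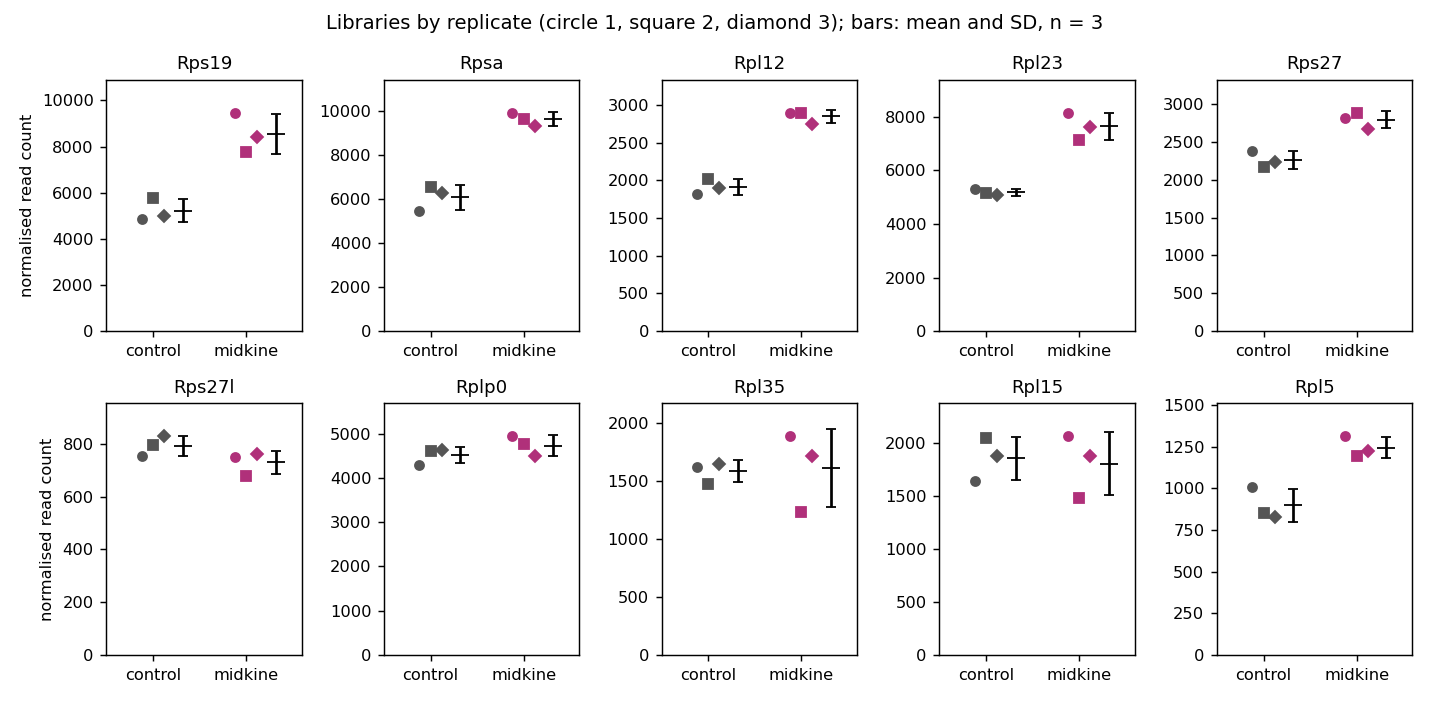
Normalised read counts (vertical axes, each from 0) of 10 ribosomal protein genes in control (grey) and midkine (magenta) libraries; circles, squares and diamonds are replicates 1, 2 and 3, and bars give mean and SD (n = 3). Rps19, Rpsa, Rpl12, Rpl23 and Rps27 are higher in every midkine library, as is Rpl5, and the groups of Rps27l, Rplp0, Rpl35 and Rpl15 overlap.

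Both proteins of the particle formed with the 5S ribosomal RNA rose. Rpl5, which binds that RNA and, when free, the p53 inhibitor Mdm2, had 1008, 854 and 828 in controls and 1312, 1194 and 1224 with midkine (log2 fold change 0.48; adjusted p = 5.78e-05 with limma). Its partner Rpl11 had 2583, 2539 and 2380 against 3244, 3612 and 2856 (0.37; adjusted p = 0.000762 with limma). In neither gene did the groups overlap. Of the 9 proteins that line the exit tunnel or its mouth, 7 were higher and 0 lower, with a median log2 fold change of 0.36; Rpl17, Rpl39 and Rpl4 led them at 0.51, 0.48 and 0.45, and Rpl31 and Rpl35 were not called. With total reads 2 of the 9 were higher and 1 lower. Over all tested genes the shares were 20.9% higher and 21.8% lower, and with total reads 10.8% and 40.7%. Rpl35 had 1625, 1474 and 1651 against 1886, 1235 and 1718, so that midkine library 1 was above and library 2 below every control (log2 fold change 0.01; adjusted p = 0.971 with limma). Rpl15, in the core of the subunit, was as scattered, at 1645, 2047 and 1883 against 2067, 1478 and 1880 (-0.05; adjusted p = 0.731 with limma).

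Several ribosomal proteins have a paralogue that can take their place. Rps27 (chr3:90212522-90213651, minus strand) had 2384, 2163 and 2230 in controls and 2815, 2886 and 2671 with midkine, with no overlap (log2 fold change 0.31; adjusted p = 0.00163 with limma). Its paralogue Rps27l (chr9:66946086-66949516, plus strand), which is known as a p53-induced gene, had 756, 795 and 830 against 750, 680 and 761, with overlapping groups (-0.12; adjusted p = 0.254 with limma). Rpl39 rose, from 5080, 4614 and 4524 to 6771, 6584 and 6400 (0.48; adjusted p = 1.19e-05 with limma), while its paralogue Rpl39l had 78.4, 84.0 and 78.2 against 78.9, 87.1 and 96.9 (0.12; adjusted p = 0.541 with limma). The difference between the partners of a pair was not tested. Rpl22 rose from 3884, 3758 and 3739 to 5249, 5006 and 4898 (0.41; adjusted p = 4.69e-05 with limma), and its paralogue Rpl22l1, outside the name rule, from 526, 458 and 440 to 547, 545 and 572 (0.23; adjusted p = 0.0429 with limma), a call that was lost with DESeq2 and without control library 2 or 3 or any midkine library (0.18 to 0.24).

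Rps4x, on the X chromosome, rose from 10559, 12342 and 11733 to 14298, 16294 and 13060 (log2 fold change 0.33; adjusted p = 0.00379 with limma), with no overlap. Rps4l, which the annotation lists as a transcribed processed pseudogene, had 25.5, 50.4 and 63.6 against 33.8, 38.5 and 50.4 (-0.11; adjusted p = 0.775 with limma). Rpl3 rose from 4561, 5197 and 4962 to 5740, 5968 and 5692 (0.24; adjusted p = 0.0108 with limma), and its muscle paralogue Rpl3l was below the filter, with 6 reads over the controls and 1 over the midkine libraries. Rpl10 had 390, 268 and 305 against 400, 313 and 345, which overlapped (0.15; adjusted p = 0.343 with limma); without control library 1 it was called at 0.29 (adjusted p = 0.039 with limma). Rpl7, with 0.09, was not called, nor was its relative Rpl7l1, with -0.19. The other member below the filter, Rpl6l, a processed pseudogene in the annotation, had 25 and 29 reads. Of the 14 tested genes in this list of paralogues and partners, 8 were higher and 0 lower, with a median of 0.24, and with total reads 2 were higher and 2 lower. For comparison, 20.9% of all tested genes were higher and 21.8% lower, and 10.8% and 40.7% with total reads.

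To see which members departed from the rest of the module, the libraries were rescaled so that the median member was equal in all. Rps19 (log2 difference 0.40), Rpsa (0.36), Rpl12 (0.27), Rpl23 (0.25), Rpl36a (0.24), Rpl24 (0.24), Rpl21 (0.21) and Rpl17 (0.20) were then higher than the median member, by limma with Benjamini-Hochberg adjustment over all genes. Lower than it were 13 members, among them Rps27l (-0.43), Rpl15 (-0.36) and Rpl35 (-0.30), and Rpl35a, Rplp0, Rpl10a, Rpl28, Rpl6, Rpl7, Rpl32 and Rps29 at -0.26 to -0.18. In this scaling 10.0% of all tested genes were higher and 46.1% lower. By subunit, 2 of 32 small and 6 of 47 large subunit genes were above the median member, and 4 and 9 were below it. These are differences between members and do not depend on the size factors.

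Genes of Diamond-Blackfan anaemia were spread over this order. Of 19 listed and tested, 12 were higher and 1 lower, with a median log2 fold change of 0.31, close to the 0.30 of all members. With total reads 4 were higher and 4 lower, where 10.8% of all tested genes were higher and 40.7% lower. Rps19, Rps24 (0.47), Rps15a (0.47) and Rpl5 (0.48) were among the higher, and Rps26, Rps29, Rpl15, Rpl31, Rpl35 and Rpl35a were not called with limma.

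The letters around the start of transcription are shown for members at both ends of the order and for the Rps27 pair, since the TOP motif is defined there. RefSeq promoters of build GRCm38.p6 were matched for 59 of 81 members. Each sequence runs from 70 bases before to 25 bases after the annotated start. Capitals mark the longest unbroken run of C and T within 10 bases of that start. A run is cut at the edge of this window, as in Rpsa, Rpl15, Rpl35 and Rps27l. It can also lie wholly before the start, outside the annotated transcript, as in Rps19, Rpl23 and Rps27l. The first 4 belong to the members with the largest rise, the next 2 to members with scattered values, and the last 2 to the paralogues.
Rps19, chr7:24884522-24884616, plus strand: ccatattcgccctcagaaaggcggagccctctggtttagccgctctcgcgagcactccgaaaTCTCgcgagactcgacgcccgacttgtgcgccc
Rpsa, chr9:120127696-120127790, plus strand: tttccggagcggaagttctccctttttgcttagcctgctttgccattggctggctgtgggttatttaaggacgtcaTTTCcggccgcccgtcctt
Rpl12, chr2:32961642-32961736, plus strand: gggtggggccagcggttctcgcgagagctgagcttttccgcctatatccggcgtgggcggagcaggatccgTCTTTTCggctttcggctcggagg
Rpl23, chr11:97782415-97782509, minus strand: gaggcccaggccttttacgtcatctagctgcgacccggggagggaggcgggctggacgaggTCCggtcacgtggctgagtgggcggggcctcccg
Rpl15, chr14:18270962-18271056, minus strand: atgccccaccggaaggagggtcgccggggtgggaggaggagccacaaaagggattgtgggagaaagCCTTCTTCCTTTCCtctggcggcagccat
Rpl35, chr2:39005107-39005201, minus strand: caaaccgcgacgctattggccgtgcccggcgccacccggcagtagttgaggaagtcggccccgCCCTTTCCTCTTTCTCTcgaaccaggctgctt
Rps27, chr3:90213624-90213718, minus strand: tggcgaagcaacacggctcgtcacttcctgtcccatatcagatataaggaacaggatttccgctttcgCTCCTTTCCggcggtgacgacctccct
Rps27l, chr9:66946016-66946110, plus strand: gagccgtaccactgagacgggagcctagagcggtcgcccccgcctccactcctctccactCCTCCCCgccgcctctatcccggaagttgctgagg

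The capital run was 4, 4, 7, 3, 14, 17, 9 and 7 bases in these 8 genes in the order shown. Among these chosen genes, Rps19, Rpsa and Rpl23 carried short runs near the annotated start and Rpl35 and Rpl15 long ones. None of the short runs covered the start itself: those of Rps19 and Rpl23 lay before it and that of Rpsa after it. Other genes below the median member varied, with 4 bases in Rplp0 and Rpl35a, 6 in Rpl6, 7 in Rpl10a and 11 in Rpl28. A link between run length and change was not tested. A run of at least 6 pyrimidines was present in 29 of the 59 promoters (49.2%) against 20.0% of 27025 RefSeq promoters of the same length outside chromosome 18. With the run, 20 of 29 tested members were higher (median log2 fold change 0.31), and without it 26 of 29 (0.33). Other letters searched in the 300 bases from 250 before to 50 after the start, on both strands, were CCGGAAG, an ETS factor core (40.7% of members and 9.14% of all promoters), CTTTCC (45.8% and 26.4%), the GC box GGGCGG (57.6% and 35.9%), AAGATGGC, a YY1 core (8.47% and 2.87%), and TATAAA (10.2% and 14.2%). Members with CCGGAAG had 17 of 24 higher (median 0.25), and those without it 29 of 34 (0.35). A match is a description of letters, and an annotated start can lie away from the one used in these cells.

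Ribosomal protein mRNAs have many processed copies in the genome, which bears on how reads from the 3′ end are counted. Of the members, 19 had no 50-base word of their last 200 bases in a transcript of another gene, and 60 had some. Among the 18 tested without shared words 13 were higher (median log2 fold change 0.30), and among the 60 with shared words 47 were higher and 1 lower (0.30). Rpl12, Rpl23, Rps27l and Rplp0 shared 0%, Rps19 and Rpl17 27.8%, Rpsa 57.0% and Rpl24 68.9% of their words. Rpl15 and Rpl35 shared 92.7% and 99.3%, and Rpl36a, Rpl21, Rplp2 and Rps27 100%, and a gene's value is the less certain the more it shares. The table has 118 rows named as pseudogenes of 47 members, which together held 0.58% to 0.62% of the members' values in the 6 libraries, and adding them to their members left 59 higher and 1 lower. Exons of 11 members, Rpl12, Rpl15, Rpl35 and Rpl5 among them, overlapped exons of another tested gene on the opposite strand, and whether the counting used strand is not stated in the sources at hand. The members lay on 19 chromosomes, 14 of them on chromosome 7 and 4 on X.

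Genes that make or serve the ribosome did not all follow. Of 8 ribosomal proteins outside the name rule, 4 were higher and 0 lower (median log2 fold change 0.26): Fau (0.33), Rpl36al (0.31), Rack1 (0.29) and Rpl22l1 (0.23). Rps3a1, a further small subunit protein, had 4250, 4512 and 4067 against 5178, 4358 and 4695 and was not called (0.15; adjusted p = 0.135 with limma); without midkine library 2 it was called at 0.21. Rps27rt (0.06), also on that list, was not called either. Of 16 elongation factors and other mRNAs with a TOP motif, 8 were higher and 1 lower (median 0.21). Eef1g, a subunit of the factor that recharges the elongation factor, rose by 0.37, the nucleolar chaperone Npm1 by 0.38, and the splicing factor Hnrnpa1 fell by 0.50. With total reads, where 10.8% of all tested genes were higher and 40.7% lower, 0 of these 16 were higher and 2 lower, and of the 8 proteins outside the name rule 0 were higher and 1 lower.

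Genes that build ribosomes gave small counts, to be read beside the 20.9% of all tested genes that were higher and the 21.8% that were lower. Of 16 escorts and assembly factors, 2 were higher, Nop53 (0.43) and Nap1l1 (0.39), and 6 lower, with a median log2 fold change of -0.24. The 6 were Tsr2, the escort of Rps26 (-0.74), Nmd3, the export adaptor of the large subunit (-0.64), Pes1 (-0.51), Pdcd2l (-0.45; not called with DESeq2), Rrs1, which brings in the 5S particle (-0.44), and Eif6, which keeps the subunits apart (-0.36). Of 16 genes of RNA polymerase I and its factors, which transcribe the ribosomal RNA, 0 were higher and 3 lower (median -0.16), a share of lower genes no larger than that of all genes. These were the largest subunit Polr1a, from 297, 266 and 263 to 186, 149 and 153 (-0.76; adjusted p = 6.15e-06 with limma), Ubtf (-0.50) and Polr1e (-0.74), the last lost without midkine library 1 (-0.63) and with DESeq2. With total reads, beside the same shares of all genes, 10 of the 16 assembly genes and 9 of the 16 polymerase genes were lower, and 0 of either list higher.

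Of 18 genes of the mTORC1 pathway and its TOP regulators, 3 were higher and 6 lower, with a median log2 fold change of -0.06. Among all tested genes 20.9% were higher and 21.8% lower. Ddit4, an inhibitor of mTORC1, had 58.6, 58.8 and 55.2 in controls and 327, 335 and 343 with midkine, far above (2.52; adjusted p = 7.46e-15 with limma). Eif4ebp1, a repressor of translation that mTORC1 inactivates, rose by 0.51 and the inhibitor Sesn2 by 0.39, while the Myc antagonist Mxd4 (-0.86), the mTOR inhibitor Deptor (-0.69) and Myc itself (-0.45; not called with DESeq2) fell. Also lower in the mTORC1 list were Eif4ebp2 (-0.32), Larp4 (-0.30) and Mlst8 (-0.34), the last not called with DESeq2. Of 12 p53 response genes, 7 were higher and 1 lower, with a median of 0.45. Cdkn1a, the cell-cycle inhibitor, went from 606, 713 and 592 to 1834, 1867 and 1878 (1.55; adjusted p = 6.66e-14 with limma), Zmat3 rose by 0.76 and Pmaip1 by 0.60, and Sesn1 fell by 0.57. With total reads, where 10.8% of all tested genes were higher and 40.7% lower, the mTORC1 list had 1 higher and 9 lower. The p53 list then had 3 higher and 1 lower.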

How the data were processed

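Libraries of mRNA 3′ ends (QuantSeq, forward) were made from 500 ng of total RNA per sample and sequenced on an Illumina HiSeq, per the labels' protocols. The submitters' processing notes list TopHat2 2.0.10 and Bowtie 1.0.0, beside HTSeq, DESeq2, SAMtools 0.1.19 and FastQC 0.11.0, and the builds GRCm38 and mm10. The annotation, strand setting and order of these tools are not stated in the labels. The authors deposited a signal table of normalised read counts, in which, by the values, every library is divided by its own size factor. Dividing by the value of 1 read, 0.916 to 1.13, gave back whole reads for 100% of values, within 1e-06 reads.

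Genes with a mean value of at least 10 were tested with limma 3.58.1 in R 4.3.3 (eBayes with a variance trend) on log2(value + 1), with Benjamini-Hochberg adjustment over all 11844 genes at 0.05. Fold changes are on that scale and understate those of low genes. The test was checked on simulated data. edgeR 4.0.16 on the recovered reads called 5157 genes against 5059 with limma; DESeq2 1.42.0, other scalings, pseudocounts and filters were the alternatives. Samples were grouped by treatment and numbered by their titles.

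The members and gene lists were chosen with earlier results of these data known. Named genes were the 8 called members with the largest rise and up to 8 with the largest fall, the 3 per subunit nearest to 0, the 2 with the highest and 2 with the lowest mean, the role groups of the 5S particle, the stalk and the paralogues, Rpsa, Rps6, Rps27a, all ribosomal proteins outside the name rule and up to 3 called genes per other list; further members were named to fill a group after their values were seen. Some genes that the rule selects are left out of the text and figures. Positions are from GENCODE vM21 (GRCm38), promoters from RefSeq. No p-value was computed over the member list. Figures used Python 3.11.15 and matplotlib 3.10.9.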

Additional observations from a re-analysis of the deposited data

How the results depend on the processing

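The members' counts and medians were recomputed under each alternative. Members called higher numbered 60, and 58 to 61 with other filters, pseudocounts, TMM, edgeR, DESeq2 and the replicate block, 47 with total reads without ribosomal RNA rows, 38 without a variance trend, 31 after quantile normalization, 13 with total reads and 8 with the median member; leaving out 1 library gave 51 to 56. Members called lower numbered 1, and 0, 4, 6 and 13 without a variance trend, after quantile normalization, with total reads and with the median member. Among all tested genes 2481 were higher and 2578 lower in the main fit. These counts were 2026 and 3177 with total reads without ribosomal RNA rows, and 2121 and 2056 without a variance trend. They were 2356 and 2583 after quantile normalization, 1283 and 4817 with total reads, and 1184 and 5466 with the median member. The median log2 fold change was 0.22, 0.0895, 0.039 and -0.0097 for all members with total reads without ribosomal RNA rows, quantile normalization, total reads and the median member; in the same order it was 0.21, 0.0185, 0.0267 and -0.022 for the small and 0.27, 0.12, 0.093 and 0.0443 for the large subunit, which ranged from 0.30 to 0.37 with 1 library left out. The difference in the share of all reads, 0.33, was 0.15 to 0.59 with 1 library left out; as a share of reads without ribosomal RNA rows it was 1.70. Scaling to the median member moved all tested genes to -0.32.

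Of 1206 values for 56 named genes, 1102 were counted as kept, 68 lost and 12 gained a call and 24 turned. Sign changes of genes called in neither fit were counted as kept, as for Rpl10 (0.15, and -0.16 with the median member). The values counted as turned follow by log2 fold change. With the median member these were Rpl35 (-0.30), Rpl35a (-0.26), Rplp0 (-0.24), Rpl7 (-0.21), Rps6 (-0.10), Rpl22l1 (-0.0792), Rpl41 (-0.0839), Rplp1 (-0.0602), Rpl3 (-0.0641), Rps27a (-0.0269), Rack1 (-0.0177) and Rps27 (-0.0021). With total reads these were Rpl35 (-0.25), Rpl35a (-0.21), Rps6 (-0.0499), Rpl41 (-0.0351), Rpl22l1 (-0.03), Rpl3 (-0.0154) and Rplp1 (-0.0115), and after quantile normalization Rplp1 (-0.07), Rpl41 (-0.0686), Rpl3 (-0.0639), Rack1 (-0.0621) and Fau (-0.0096). Scaling to the median member or to total reads shifts all genes in a library nearly alike. Quantile normalization shifts each gene by its place among the values, so its turns are not such a common shift.

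Replicate numbers were not shown to pair the samples: deviations of same-numbered libraries correlated at -0.01, 0.03 and -0.06, and others at -0.04 to 0.05. With the replicate block 58 members were higher and 1 lower, and 5160 genes were called. Members with few reads, such as Rps4l (142 and 122 reads) and Rpl39l (248 and 261), had the widest errors.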
